A study of Mus musculus with 12 samples.

Results

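The genes described here encode proteoglycans, the enzymes that build and trim heparan sulfate, and the synthases, hyaluronidases and binding proteins of hyaluronan. They are 39 genes picked by symbol from the 55401 rows of a count table of bulk RNA sequencing, and each symbol matched 1 row. The RNA came from peritoneal lavage cells of C57BL/6J mice, 4 libraries in each of 3 groups. Mice labelled ID8-FSHR were injected intraperitoneally with the mouse ovarian cancer line ID8 (defb29/Vegf-a) carrying the follicle-stimulating hormone receptor (FSHR), and mice labelled ID8 with the same line without it. ID8 derives from mouse ovarian surface epithelium, and per the label this derivative carries the beta-defensin gene Defb29 and the vascular growth factor gene Vegfa, in both tumour groups. The uninjected mice received nothing, so no group was injected without tumour cells. Lavage was done with 8 mL of buffered saline 7 days after injection. The dose is given as 4000000 cells in the series text and 5000000 in the protocol, which were not reconciled. The sources used here do not give the ages and sexes of the mice or the promoter that drives FSHR.

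A proteoglycan is a core protein carrying long sulfated sugar chains. Heparan sulfate chains are polymerised in the Golgi by EXT1 with EXT2, patterned by sulfotransferases, and edited outside the cell by sulfatases and by heparanase. The chains sit on syndecans and glypicans at the cell surface and on perlecan and agrin in basement membranes, and they bind growth factors, chemokines and Wnt ligands. Hyaluronan has no core protein and no sulfate. It is made at the plasma membrane, and mesothelium, the lining of the peritoneal cavity, coats itself with it. The small leucine-rich proteoglycans decorin and biglycan bind collagen in connective tissue, and serglycin fills the granules of mast cells and other leukocytes.

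Promoter sequence is shown for the member with the widest difference between the tumour groups, Hmmr, and for 3 heparan sulfate core proteins that were higher in both tumour groups. Each window runs from 250 bases before to 50 bases after the gene start of RefSeq on GRCm38.p6, is printed on the gene's own strand, and lies at chr11:40733388-40733687 (minus strand) for Hmmr, chr2:164443139-164443438 (minus) for Sdc4, chr4:137468553-137468852 (plus) for Hspg2 and chrX:52164874-52165173 (minus) for Gpc4. Capitals mark matches, on either strand, to CCAAT (the CCAAT box, read as ATTGG on the other strand), TTTGAA (a core of the cell cycle homology region) and GGGCGG (the GC box, read as CCGCCC on the other strand).
Hmmr: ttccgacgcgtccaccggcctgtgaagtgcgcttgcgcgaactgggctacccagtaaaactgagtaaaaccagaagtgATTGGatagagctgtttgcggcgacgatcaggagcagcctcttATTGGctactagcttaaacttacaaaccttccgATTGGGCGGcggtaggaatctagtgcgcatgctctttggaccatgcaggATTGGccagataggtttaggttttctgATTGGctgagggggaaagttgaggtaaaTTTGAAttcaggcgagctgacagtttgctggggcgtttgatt
Sdc4: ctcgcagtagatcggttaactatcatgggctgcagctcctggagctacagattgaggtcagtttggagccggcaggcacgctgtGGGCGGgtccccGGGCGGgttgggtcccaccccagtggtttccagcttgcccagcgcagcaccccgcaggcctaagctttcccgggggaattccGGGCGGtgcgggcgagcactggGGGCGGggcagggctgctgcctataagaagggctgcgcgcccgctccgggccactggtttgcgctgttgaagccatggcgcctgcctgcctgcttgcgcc
Hspg2: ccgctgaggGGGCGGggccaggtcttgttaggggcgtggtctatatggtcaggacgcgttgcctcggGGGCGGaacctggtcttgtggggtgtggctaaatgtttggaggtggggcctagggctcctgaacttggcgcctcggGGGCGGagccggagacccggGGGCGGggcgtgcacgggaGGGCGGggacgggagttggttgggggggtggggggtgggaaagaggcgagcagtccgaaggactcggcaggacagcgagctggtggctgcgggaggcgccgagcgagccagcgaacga
Gpc4: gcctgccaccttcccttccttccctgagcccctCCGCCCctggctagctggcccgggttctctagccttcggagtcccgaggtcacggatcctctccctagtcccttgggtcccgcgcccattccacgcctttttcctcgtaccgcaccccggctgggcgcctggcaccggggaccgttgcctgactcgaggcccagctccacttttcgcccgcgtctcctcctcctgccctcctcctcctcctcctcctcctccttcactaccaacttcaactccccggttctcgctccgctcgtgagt

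The Hmmr window held 5 CCAAT matches, all on the other strand, with 1 TTTGAA match starting 9 bases after the gene start. Its single GGGCGG match overlaps a CCAAT match. Of the 32851 promoters in the RefSeq table, 37.4% held CCAAT at least once and 0.271% held it at least 5 times. TTTGAA was found in 17.9%, and 14 promoters had at least 5 CCAAT matches together with TTTGAA. The GC box GGGCGG matched 4 times for Sdc4, 5 times for Hspg2 and 1 time for Gpc4, against 35.7% of all promoters with at least 1 match and 5.49% with at least 4. The table held 31 promoters for 27 of the 39 members. GGGCGG was in 22 of those 31, CCAAT in 13 and TTTGAA in 5. The AP-1 element TGACTCA and the E box CACGTG, also searched on both strands, were each in 1 of the 31, against 5.2% and 7.15% of all promoters. These matches describe letters in a window and show no binding. In GENCODE M21, used here for lengths, Sdc4 starts at 164443887 and Gpc4 at 52165252, both on the minus strand. Both windows therefore lie inside those annotated genes, and whether they are promoters is uncertain.

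Total counts per library ran from 47419608 to 64333677. Levels are in CPM (counts relative to the TMM-scaled library size). If counts were independent, a count of 0 would allow up to 3 counts, or 0.0444 to 0.0653 CPM. Low counts here were mostly even and so not independent, which makes the limit higher. The mouse Fshr row held 9 counts over the 4 ID8-FSHR libraries, 2 over the ID8 libraries and 0 over the uninjected libraries, so it does not check the label. ID8-FSHR here means the libraries labelled so. Defb29 stood at 18.5 ± 6.88 CPM in ID8-FSHR and 26.2 ± 3.76 CPM in ID8 lavages (SD, n = 4 each), with 0 counts in uninjected lavages. On the first principal component ID8-FSHR replicate 2 scored -43.2, apart from the remaining 7 tumour libraries at -96.1 to -87.4. The 10 markers of mesothelium and ovarian surface epithelium, a list meant to cover the ID8 line too, summed to 912 to 2346 CPM in ID8-FSHR, with replicate 2 lowest, 2655 to 3333 CPM in ID8 and 20.2 to 22.9 CPM in uninjected lavages. A level in a lavage is a share of a mixture, in which fewer cells of a type and less RNA per cell cannot be told apart.

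Of the 39 members, 35 passed the filter on low counts. Gpc2, Gpc6, Has2 and Lum did not, with 30, 59, 42 and 34 counts over all 12 libraries. In edgeR's quasi-likelihood test, fitted on all 16915 genes that passed, with Benjamini-Hochberg adjusted p under 0.05 as the threshold, 20 members were higher and 5 lower in ID8-FSHR than in uninjected lavages. The background is wide, since 64.5% of all tested genes were called in that comparison, 33.9% higher and 30.6% lower. In ID8 against uninjected lavages 20 members were higher and 6 lower, where 64.1% of all genes were called, 32.7% higher and 31.4% lower. The 4 values of each group did not overlap for 22 members in the ID8-FSHR comparison (18 higher and 4 lower, against 57.0% of all tested genes, 29.6% higher and 27.4% lower) and for 24 in the ID8 comparison (18 higher and 6 lower, against 62.5%, 31.8% higher and 30.7% lower). The median log2 fold change was 0.84 over the tested members and 0.0008 over all tested genes for ID8-FSHR, and 0.83 and -0.03 for ID8. Both comparisons use the same uninjected libraries.

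**Figure D1:**
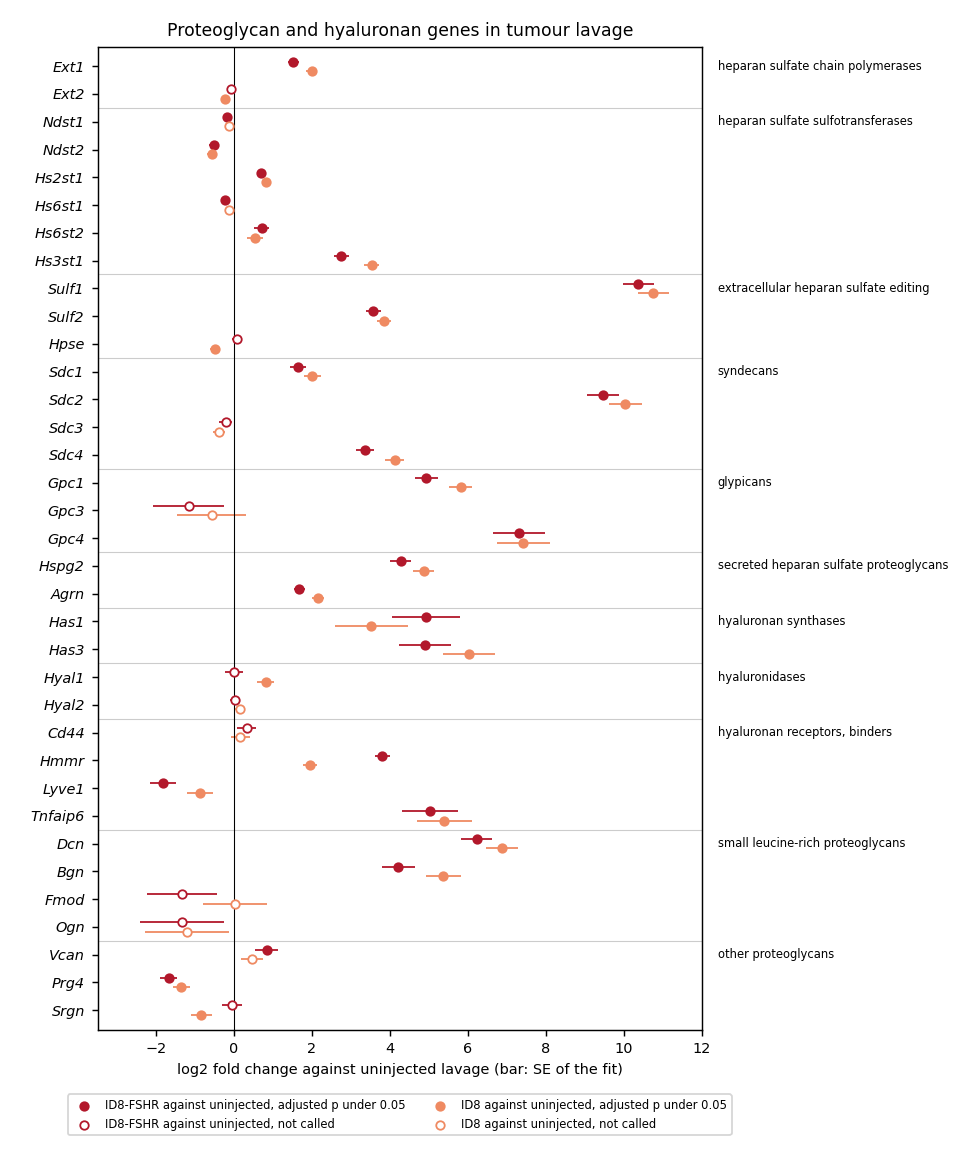
Log2 fold change (x axis) of each tested member, by role, in ID8-FSHR and in ID8 lavages against uninjected lavages, with standard errors of the edgeR fit as bars; filled symbols passed an adjusted p of 0.05. Sulf1 and Sdc2 lie near 10 in both comparisons, while Prg4 and Lyve1 lie below 0.

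Sulf1 and Sulf2 encode the extracellular sulfatases that take sulfate off finished heparan sulfate chains, and both were far higher in the tumour lavages. Sulf1 (chromosome 1, 12692277 to 12861192, plus strand of GRCm38) had 346, 149.7, 318 and 306 CPM in ID8-FSHR replicates 1 to 4, and 357, 329, 377 and 399 CPM in ID8 replicates 1 to 4. The uninjected libraries held 0.395, 0.184, 0.202 and 0.0436 CPM, in the same order as all such lists below. Every tumour library lay far above every uninjected one, and ID8-FSHR replicate 2 was the lowest tumour library. The fold was 1322 for ID8-FSHR (log2 10.37, SE 0.39, edgeR adjusted p = 1.65e-09) and 1728 for ID8 (log2 10.75, SE 0.40, edgeR adjusted p = 1.09e-09). Both rest on an uninjected level of 42 counts over 4 libraries.

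Sulf2 was more abundant than Sulf1 in uninjected lavages. It had 168, 107, 176 and 178 CPM in ID8-FSHR lavages, 189, 169, 197 and 207 CPM in ID8 lavages and 11.4, 12.5, 11.4 and 17.4 CPM in uninjected lavages. The tumour libraries did not overlap the uninjected ones, at 11.9-fold for ID8-FSHR (edgeR adjusted p = 6.07e-09) and 14.4-fold for ID8 (edgeR adjusted p = 3.14e-09). Per kilobase of merged exon, Sulf1 made up 47.3% ± 3.99 of the sulfatase level in ID8-FSHR, 49.95% ± 0.306 in ID8 and 0.892% ± 0.674 in uninjected lavages (SD, n = 4 each).

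Hpse encodes heparanase, the enzyme that cuts heparan sulfate chains, and it did not follow the sulfatases. It had 71.4, 112, 102 and 97.2 CPM in ID8-FSHR lavages, 59.0, 75.7, 58.6 and 64.4 CPM in ID8 lavages and 97.3, 82.7, 85.1 and 98.0 CPM in uninjected lavages. All 4 ID8 libraries lay below the uninjected range, at log2 -0.50 (SE 0.13, edgeR adjusted p = 0.00442), while the ID8-FSHR libraries spanned it (log2 0.08, SE 0.13, edgeR adjusted p = 0.619).

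The chain polymerase Ext1 rose and its partner Ext2 did not. Ext1 had 138, 94.9, 137 and 147 CPM in ID8-FSHR lavages, 185, 159.7, 168 and 204 CPM in ID8 lavages and 47.8, 36.2, 47.8 and 48.0 CPM in uninjected lavages. The 3 groups did not overlap, and the folds over uninjected were 2.87 (edgeR adjusted p = 8.07e-07) for ID8-FSHR and 3.99 (edgeR adjusted p = 7.81e-08) for ID8. Ext2, which works in a complex with Ext1, had 90.6, 100.1, 93.3 and 86.2 CPM in ID8-FSHR, 79.3, 87.0, 83.9 and 80.1 CPM in ID8 and 112, 89.6, 96.3 and 92.4 CPM in uninjected lavages. The ID8 libraries lay just below the uninjected ones, and the ID8-FSHR libraries overlapped them. It was called lower in ID8 (log2 -0.24, SE 0.08, edgeR adjusted p = 0.0143), a call that dropped out without ID8-FSHR replicate 2 (edgeR adjusted p = 0.0731). Per length, Ext1 was 55.5% ± 6.37 of the pair in ID8-FSHR, 66.2% ± 3.28 in ID8 and 29.5% ± 2.47 in uninjected lavages.

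Among the 6 sulfotransferases, which place sulfate on the growing chain, 3 were higher and 3 lower in ID8-FSHR than in uninjected lavages. In ID8, 3 were higher and 1 lower. Of all tested genes 33.9% were higher and 30.6% lower in ID8-FSHR, and 32.7% higher and 31.4% lower in ID8. Hs3st1, which makes the rare sulfation that antithrombin binds, moved most. Its level was 25.0, 14.4, 17.1 and 16.5 CPM in ID8-FSHR, 32.1, 31.1, 27.6 and 34.2 CPM in ID8 and 2.66, 2.25, 2.30 and 3.62 CPM in uninjected lavages. No library of 1 group reached the range of another, and the folds over uninjected were 6.75 (edgeR adjusted p = 7.11e-08) for ID8-FSHR and 11.6 (edgeR adjusted p = 1.01e-08) for ID8.

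Hs2st1, which sulfates the uronic acid of the chain, had 69.6, 52.5, 64.3 and 58.8 CPM in ID8-FSHR, 65.7, 65.0, 71.0 and 70.5 CPM in ID8 and 43.5, 35.6, 38.0 and 35.7 CPM in uninjected lavages. The tumour libraries overlapped each other and lay above the uninjected ones, 1.605-fold (edgeR adjusted p = 2.79e-05) for ID8-FSHR and 1.78-fold (edgeR adjusted p = 4.81e-06) for ID8. Hs6st2, which adds sulfate to glucosamine, had 8.24 to 14.9 CPM in ID8-FSHR, 9.13 to 14.4 CPM in ID8 and 6.77 to 9.45 CPM in uninjected lavages. Its tumour libraries overlapped the uninjected ones, with log2 fold changes of 0.71 (edgeR adjusted p = 0.00689) in ID8-FSHR and 0.53 (edgeR adjusted p = 0.0308) in ID8. Without any 1 of ID8 replicates 1 and 3 or uninjected replicates 1, 3 and 4 its ID8 call was lost (edgeR adjusted p 0.0564 to 0.108).

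Ndst2, an N-deacetylase and N-sulfotransferase that mast cells need to make heparin, was lower. It had 59.0, 81.3, 62.6 and 62.5 CPM in ID8-FSHR, 57.1, 77.3, 59.6 and 61.7 CPM in ID8 and 105, 97.9, 83.8 and 91.0 CPM in uninjected lavages. All 8 tumour libraries lay below all 4 uninjected ones, with log2 fold changes of -0.51 (SE 0.12, edgeR adjusted p = 0.00229) for ID8-FSHR and -0.56 (SE 0.12, edgeR adjusted p = 0.00113) for ID8. Its paralog Ndst1, the more general enzyme, differed little, at 165 ± 3.79 CPM in ID8-FSHR, 171 ± 12.7 CPM in ID8 and 187 ± 6.89 CPM in uninjected lavages (SD, n = 4 each). Its call in ID8-FSHR (log2 -0.18, edgeR adjusted p = 0.0239) was lost without ID8-FSHR replicates 2 or 4 or uninjected replicates 1 or 3 (edgeR adjusted p 0.0515 to 0.408). Hs6st1 was called lower in ID8-FSHR at an edgeR adjusted p of 0.0498. That call was lost in 10 of the 12 fits that left out 1 library, all but those without ID8-FSHR replicate 3 or uninjected replicate 2 (log2 -0.23 to -0.09 in the 10). In ID8, Ndst1 was called lower without ID8 replicate 4 (log2 -0.16, edgeR adjusted p = 0.0456) and Hs6st1 without uninjected replicate 2 (log2 -0.21, edgeR adjusted p = 0.0292), and neither in the fit of all 12 libraries.

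Syndecans are transmembrane carriers of heparan sulfate, and 3 of the 4 rose in both tumour groups. Of all tested genes 33.9% were higher in ID8-FSHR and 32.7% in ID8. Sdc2 had 79.9, 37.9, 73.8 and 69.1 CPM in ID8-FSHR lavages, 105, 82.8, 102 and 99.0 CPM in ID8 lavages and 0.118, 0, 0.0404 and 0.218 CPM in uninjected lavages. It was close to absent from uninjected lavages and abundant in every tumour library. The log2 fold changes were 9.46 (SE 0.42, edgeR adjusted p = 2.50e-09) for ID8-FSHR and 10.04 (SE 0.42, edgeR adjusted p = 1.42e-09) for ID8. Without uninjected replicate 4 they were 10.23 for ID8-FSHR and 10.81 for ID8. Sdc4, which joins integrins at focal adhesions, had 359, 140.4, 267 and 315 CPM in ID8-FSHR, 482, 414, 428 and 502 CPM in ID8 and 22.7, 27.5, 27.1 and 27.6 CPM in uninjected lavages. The 3 groups did not overlap, and the folds over uninjected were 10.3 (edgeR adjusted p = 6.40e-08) for ID8-FSHR and 17.4 (edgeR adjusted p = 1.43e-08) for ID8.

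Sdc1, the epithelial and plasma cell syndecan, had 61.9, 37.5, 52.8 and 53.8 CPM in ID8-FSHR, 69.7, 60.5, 61.1 and 74.0 CPM in ID8 and 14.6, 10.2, 17.8 and 23.5 CPM in uninjected lavages. All tumour libraries lay above the uninjected ones, 3.12-fold (edgeR adjusted p = 2.16e-05) for ID8-FSHR and 4.02-fold (edgeR adjusted p = 3.94e-06) for ID8. Sdc3, a syndecan of neurons that macrophages also express, had 1199 to 1935 CPM in ID8-FSHR, 1105 to 1730.2 CPM in ID8 and 1559.8 to 1998 CPM in uninjected lavages. Its groups overlapped and it was called in neither comparison (log2 -0.21, SE 0.16, edgeR adjusted p = 0.259 for ID8-FSHR; log2 -0.38, SE 0.16, edgeR adjusted p = 0.0521 for ID8). It was called lower in ID8 without ID8 replicate 2 (log2 -0.53, edgeR adjusted p = 0.00893) or ID8-FSHR replicate 1 (log2 -0.38, edgeR adjusted p = 0.0397). With all libraries, limma-voom called it lower in ID8 (limma-voom adjusted p = 0.0389). So did edgeR with the filter of 1 CPM (edgeR adjusted p = 0.041) or a fit of only those 2 groups (edgeR adjusted p = 0.0493). Median-of-ratios scaling and no filter left it not called. The make-up of the family differed between the groups. Per length, Sdc3 made up 64.3% ± 11.9 of syndecan transcripts in ID8-FSHR, 49.6% ± 6.23 in ID8 and 95.1% ± 1.01 in uninjected lavages, and Sdc4 made up 27.4% ± 9.82 in ID8-FSHR, 40.3% ± 4.80 in ID8 and 3.41% ± 0.598 in uninjected lavages (SD, n = 4 each).

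**Figure D2:**
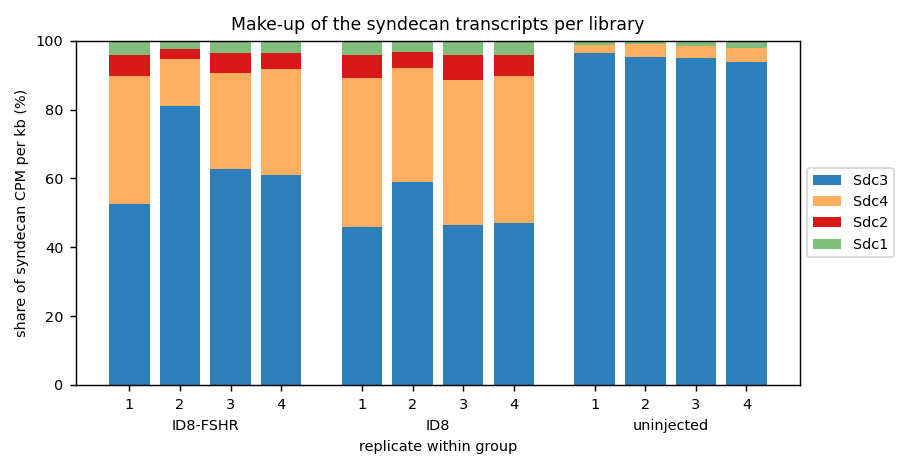
Share of the summed syndecan level (CPM per kilobase of merged exon, y axis in percent) taken by each of the 4 syndecans in every library (x axis, replicates within ID8-FSHR, ID8 and uninjected). Sdc3 takes 93.9 to 96.3% in uninjected lavages, 52.7 to 81.0% in ID8-FSHR, with replicate 2 highest, and 45.8 to 58.9% in ID8.

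Glypicans are held to the membrane by a lipid anchor and modulate Wnt, Hedgehog and growth factor signals. Gpc4 had 89.3, 36.5, 75.0 and 71.8 CPM in ID8-FSHR, 72.5, 65.4, 79.4 and 78.2 CPM in ID8 and 0.0789, 0.0369, 0.121 and 1.57 CPM in uninjected lavages. Uninjected replicate 4 stood apart from the other uninjected libraries and was still far below the tumour libraries. The log2 fold changes were 7.30 (SE 0.67, edgeR adjusted p = 8.33e-07) for ID8-FSHR and 7.42 (SE 0.67, edgeR adjusted p = 7.35e-07) for ID8. That library sets their size, since without it they were 9.73 for ID8-FSHR and 9.85 for ID8.

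Gpc1 had 71.7, 46.3, 63.9 and 102 CPM in ID8-FSHR, 148, 115, 119 and 140.5 CPM in ID8 and 1.74, 1.55, 3.35 and 2.68 CPM in uninjected lavages. The 3 groups did not overlap, and levels were 30.6-fold (ID8-FSHR, edgeR adjusted p = 1.62e-08) and 56.2-fold (ID8, edgeR adjusted p = 4.85e-09) those of uninjected lavages. Antisense Ankmy1 shares 18.9% of its exon bases, and whether the counts used strand is not stated. Gpc3, the fetal and tumour glypican, had 0.0316, 0.0796, 0.240 and 0.0730 CPM in ID8-FSHR, 0.0592, 0.202, 0.279 and 0.105 CPM in ID8 and 0.493, 0, 0.323 and 0.131 CPM in uninjected lavages. Its groups overlapped at 25 counts or fewer per library, and it was not called.

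The basement membrane proteoglycans perlecan (Hspg2) and agrin (Agrn) were higher in both tumour groups. Hspg2 had 682, 325, 679 and 684 CPM in ID8-FSHR, 927, 776, 923 and 950.2 CPM in ID8 and 32.2, 20.4, 29.5 and 40.8 CPM in uninjected lavages. Replicate 2 was lowest in each of the 3 groups, and the groups did not overlap. The folds over uninjected were 19.3 (edgeR adjusted p = 2.70e-08) for ID8-FSHR and 29.1 (edgeR adjusted p = 1.03e-08) for ID8. Agrn had 85.0, 63.2, 108 and 102 CPM in ID8-FSHR, 127, 121, 130.5 and 122 CPM in ID8 and 32.7, 25.2, 24.4 and 29.6 CPM in uninjected lavages. Its groups did not overlap either, at 3.20-fold (edgeR adjusted p = 5.69e-07) for ID8-FSHR and 4.48-fold (edgeR adjusted p = 6.62e-08) for ID8.

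**Figure D3:**
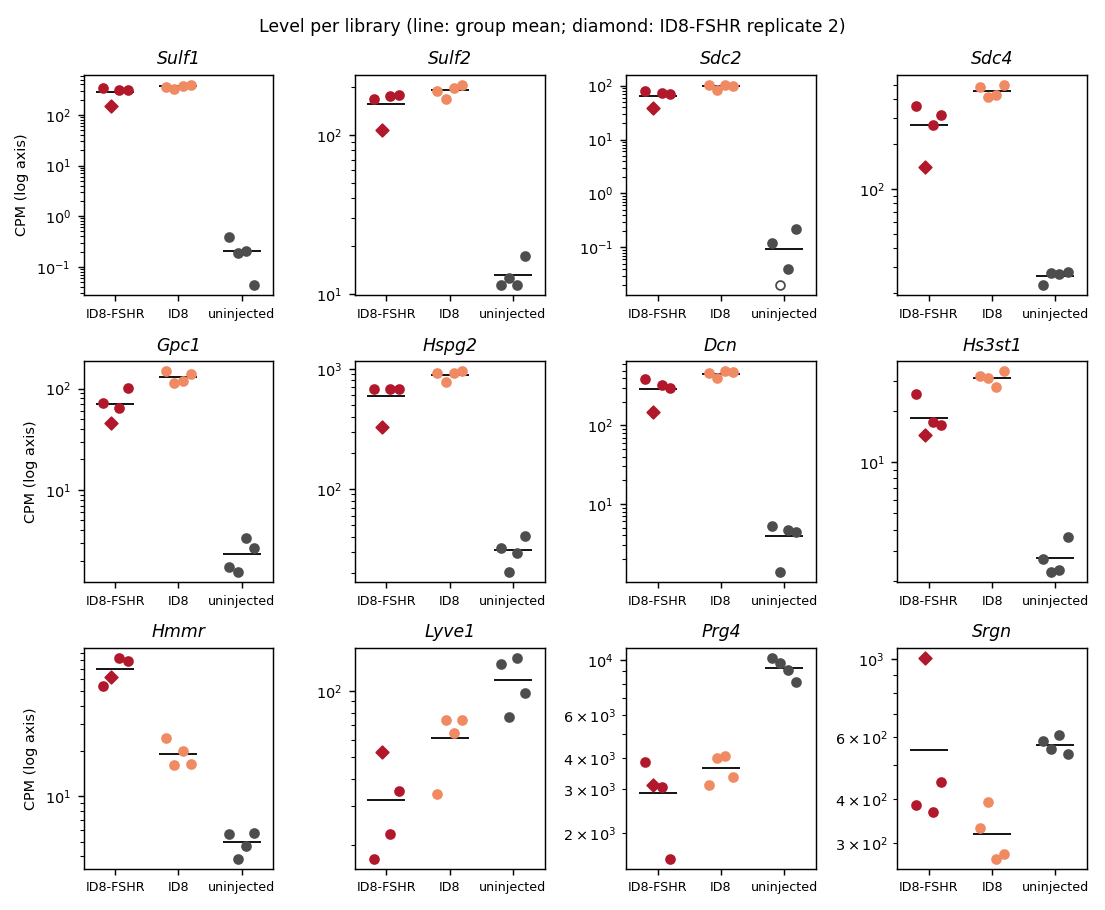
CPM per library (log10 y axis, its range set for each panel) of 12 members in ID8-FSHR, ID8 and uninjected lavages, with 1 point per library, a line at the group mean and a diamond for ID8-FSHR replicate 2; the open symbol is a library with 0 counts, drawn at 0.02 CPM. The tumour libraries of Sulf1, Sdc2, Sdc4, Hspg2 and Dcn lie above all uninjected libraries, and those of Prg4 below them.

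Hyaluronan synthase transcripts were scarce in all groups. Has3, 1 of the 3 synthases, had 5.53, 2.05, 2.204 and 2.96 CPM in ID8-FSHR, 5.95, 7.22, 6.75 and 8.02 CPM in ID8 and 0, 0.111, 0.303 and 0 CPM in uninjected lavages. Every tumour library was above every uninjected one, with log2 fold changes of 4.90 (SE 0.66, edgeR adjusted p = 2.79e-05) for ID8-FSHR and 6.03 (SE 0.67, edgeR adjusted p = 4.96e-06) for ID8. Without uninjected replicate 3 they were 6.26 for ID8-FSHR and 7.39 for ID8. Has1, another synthase, had 0.411, 0.279, 0.481 and 0.329 CPM in ID8-FSHR, 0.266, 0.121, 0.0398 and 0.123 CPM in ID8 and 0, 0, 0 and 0.0436 CPM in uninjected lavages. That is 82 counts over the ID8-FSHR group, 33 over the ID8 group and 2 over the uninjected group, with ID8 replicate 3 inside the uninjected range and both uninjected counts in replicate 4. It was called higher in both comparisons (edgeR adjusted p = 0.000298 for ID8-FSHR and 0.00496 for ID8), a ratio of 37.6 (95% exact binomial interval 10.1 to 316) for ID8-FSHR and 14.7 (3.77 to 127) for ID8. These intervals leave out the spread between mice. They also treat counts as independent, which low counts here were not, so they are too narrow even for counting error. Has2, the main synthase of most mesenchymal cells, was below the filter in all groups, with no library above 0.202 CPM.

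The hyaluronidases, which cut hyaluronan, changed less. Hyal2, anchored at the cell surface, had 12.2, 13.8, 11.5 and 11.7 CPM in ID8-FSHR, 11.8, 15.4, 11.7 and 14.8 CPM in ID8 and 13.6, 11.8, 13.4 and 9.74 CPM in uninjected lavages. Its groups overlapped and it was not called (log2 0.02, SE 0.13, for ID8-FSHR and 0.15, SE 0.13, for ID8). Hyal1, the lysosomal enzyme, had 2.56, 1.47, 2.78 and 2.30 CPM in ID8-FSHR, 3.35, 3.63, 4.54 and 4.59 CPM in ID8 and 1.70, 2.56, 2.61 and 2.29 CPM in uninjected lavages. The ID8 libraries were the highest (log2 0.81 over uninjected, SE 0.22, edgeR adjusted p = 0.00643). Hyal1 shares 51.9% of its exon bases with Hyal3 and Naa80, so its level is uncertain.

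Of the 4 hyaluronan receptors and binding proteins, 2 rose and 1 fell in each tumour group. Over all tested genes 33.9% were higher and 30.6% lower in ID8-FSHR, and 32.7% higher and 31.4% lower in ID8. Cd44, the leukocyte and tumour receptor, had 339.6 to 785 CPM in ID8-FSHR, 358 to 673 CPM in ID8 and 393 to 587 CPM in uninjected lavages, and was not called (log2 0.32, SE 0.25, edgeR adjusted p = 0.274 for ID8-FSHR; log2 0.17, SE 0.25, edgeR adjusted p = 0.580 for ID8). Tnfaip6, a secreted protein that crosslinks hyaluronan in inflammation, had 2.45, 1.19, 2.48 and 4.11 CPM in ID8-FSHR, 4.03, 3.45, 2.27 and 3.45 CPM in ID8 and 0, 0, 0.0808 and 0.240 CPM in uninjected lavages. The tumour libraries lay above the uninjected ones, with log2 fold changes of 5.03 (SE 0.71, edgeR adjusted p = 4.06e-05) for ID8-FSHR and 5.39 (SE 0.71, edgeR adjusted p = 2.23e-05) for ID8. Without uninjected replicate 4, which held most of the few uninjected reads, they were 6.50 for ID8-FSHR and 6.87 for ID8.

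Lyve1, the hyaluronan receptor of lymphatic endothelium and of some tissue macrophages, fell. It had 17.3, 52.7, 22.3 and 35.2 CPM in ID8-FSHR, 34.1, 73.7, 64.4 and 73.9 CPM in ID8 and 134, 76.5, 141 and 98.0 CPM in uninjected lavages. All tumour libraries lay below the uninjected ones, although ID8 replicates 2 and 4 came close to uninjected replicate 2. The log2 fold changes were -1.82 (SE 0.34, edgeR adjusted p = 0.000451) for ID8-FSHR and -0.87 (SE 0.33, edgeR adjusted p = 0.0362) for ID8. The ID8 call was lost without ID8-FSHR replicate 2, ID8 replicates 1 or 3 or uninjected replicates 1 or 3 (edgeR adjusted p 0.0526 to 0.0997).

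Hmmr, an intracellular and surface hyaluronan-binding protein of the mitotic spindle that is made in dividing cells, was the one member with levels in the order ID8-FSHR, ID8, uninjected beyond the spread of every group. It had 54.3, 62.2, 82.5 and 79.1 CPM in ID8-FSHR, 24.3, 16.1, 19.9 and 16.4 CPM in ID8 and 5.66, 3.86, 4.67 and 5.71 CPM in uninjected lavages. Against uninjected lavages it was 14.0-fold higher in ID8-FSHR (edgeR adjusted p = 5.36e-09) and 3.86-fold higher in ID8 (edgeR adjusted p = 9.19e-07). All 8 markers of proliferation were higher in the same 2 comparisons, and their summed level ran from 1027 to 1525 CPM in ID8-FSHR, 309 to 476 CPM in ID8 and 120.0 to 201 CPM in uninjected lavages. The part of dividing cells in the Hmmr result was not tested.

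Decorin (Dcn), which binds collagen and growth factors, was the most abundant small leucine-rich proteoglycan. It had 389.6, 149, 329 and 296 CPM in ID8-FSHR, 458, 407, 487 and 476 CPM in ID8 and 5.27, 1.37, 4.69 and 4.33 CPM in uninjected lavages. The tumour libraries did not overlap the uninjected ones, at 74.5-fold for ID8-FSHR (edgeR adjusted p = 3.87e-08) and 117-fold for ID8 (edgeR adjusted p = 1.99e-08). Biglycan (Bgn) was lower in level, with 1.52, 4.06, 3.95 and 5.49 CPM in ID8-FSHR, 7.25, 6.45, 9.90 and 9.66 CPM in ID8 and 0.276, 0.148, 0.283 and 0.0871 CPM in uninjected lavages. Its 3 groups did not overlap, and the log2 fold changes over uninjected were 4.22 (SE 0.43, edgeR adjusted p = 2.28e-06) for ID8-FSHR and 5.37 (SE 0.44, edgeR adjusted p = 3.05e-07) for ID8. Fibromodulin (Fmod), which binds collagen, had 0, 0.239, 0.0801 and 0.0365 CPM in ID8-FSHR, 0.118, 0.242, 0.299 and 0.245 CPM in ID8 and 0.474, 0.0369, 0.242 and 0.131 CPM in uninjected lavages. It overlapped between the groups, and neither it nor osteoglycin (Ogn), at most 0.868 CPM, was called. Fmod was called lower in ID8-FSHR without replicate 2 (log2 -2.41, edgeR adjusted p = 0.0470).

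Prg4 fell in both tumour groups. It encodes the boundary lubricant lubricin, which resident peritoneal macrophages make, and had 3857, 3119, 3076 and 1571 CPM in ID8-FSHR, 3109, 4008, 4087 and 3357 CPM in ID8 and 10149.5, 9731, 9103 and 8174 CPM in uninjected lavages. Every tumour library held less than any uninjected library, with log2 fold changes of -1.68 (SE 0.22, edgeR adjusted p = 1.80e-05) for ID8-FSHR and -1.35 (SE 0.21, edgeR adjusted p = 0.000109) for ID8. Prg4 was still the most abundant member in all groups, at 38.1% ± 9.56 of the members' summed level per length in ID8-FSHR, 43.5% ± 3.82 in ID8 and 73.0% ± 1.30 in uninjected lavages (SD, n = 4 each). Of 10 other markers of large peritoneal macrophages 7 were lower and 1, Gata6, was higher in both comparisons. Those 10 summed to 5445 to 9342 CPM in ID8-FSHR, 7239 to 8973 CPM in ID8 and 13005 to 15329 CPM in uninjected lavages. Their part in the Prg4 result was not tested.

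Srgn, serglycin, had 386, 1005, 369 and 449 CPM in ID8-FSHR, 332, 393, 271 and 281 CPM in ID8 and 585, 555, 609 and 538 CPM in uninjected lavages. All ID8 libraries lay below the uninjected range (log2 -0.84, SE 0.27, edgeR adjusted p = 0.0150), as did 3 of the 4 ID8-FSHR libraries, while ID8-FSHR replicate 2 was the highest of all 12. Serglycin was not called in ID8-FSHR (log2 -0.05, SE 0.27, edgeR adjusted p = 0.879). Without ID8-FSHR replicate 2 it was called lower there, at log2 -0.41 (edgeR adjusted p = 0.00877). Mast cell markers, of which 5 of 7 were lower in ID8-FSHR and 4 of 7 in ID8 while Kit was higher in both, summed to 552 to 861 CPM in ID8-FSHR, 776 to 971 CPM in ID8 and 870.3 to 1381 CPM in uninjected lavages. Of 8 markers of monocytes and small macrophages 3 were lower and 2 higher in ID8-FSHR, and 5 lower and 1 higher in ID8. Those 8 summed to 1703 to 2896 CPM in ID8-FSHR, with replicate 2 highest, 1734 to 2053 CPM in ID8 and 2813 to 3766 CPM in uninjected lavages. The part of mast cells and monocytes in the Srgn result, and of mast cells in the Ndst2 result, was not tested.

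Vcan, versican, a large chondroitin sulfate proteoglycan that binds hyaluronan, had 17.9, 29.4, 26.4 and 11.4 CPM in ID8-FSHR, 13.6, 15.3, 22.8 and 14.0 CPM in ID8 and 11.4, 10.5, 8.57 and 17.3 CPM in uninjected lavages. The groups overlapped, with uninjected replicate 4 above 1 library of ID8-FSHR and 3 of ID8. It was called higher in ID8-FSHR (log2 0.84, SE 0.29, edgeR adjusted p = 0.0231) and not in ID8 (log2 0.46, SE 0.29, edgeR adjusted p = 0.181). The ID8-FSHR call was lost without ID8-FSHR replicates 2 or 3 or uninjected replicates 1, 2 or 3 (edgeR adjusted p 0.0542 to 0.0681).

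Markers of mesothelium and ovarian surface epithelium were higher in the same comparisons as the members that rose. Wt1, which encodes a zinc finger regulator of these epithelia, averaged 371 ± 125 CPM in ID8-FSHR, 550.1 ± 43.0 CPM in ID8 and 0.404 ± 0.225 CPM in uninjected lavages. Of the 10 markers of that list 8 were higher in ID8-FSHR and 9 in ID8, and none stood at 0 in any group. Fibroblast markers, 5 of 7 tested higher in ID8-FSHR and 6 of 7 in ID8, where Thy1 was lower, summed to 34.5 to 89.6 CPM in ID8-FSHR, 47.3 to 115 CPM in ID8 and 25.7 to 38.6 CPM in uninjected lavages, with Dpt at 0 counts in uninjected mice. The part of either list in the members' results was not tested.

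The comparison of ID8-FSHR with ID8 asks what differs between lavages with and without the receptor in the line. Of the 35 tested members 2 were higher and 7 lower in ID8-FSHR, against 6.04% and 5.56% of all tested genes and 11.6% called in all. The groups did not overlap for 13 members, 2 higher and 11 lower, where 18.5% of all genes did not overlap (7.74% higher and 10.8% lower). The members' median log2 fold change was -0.33, against -0.01 over all genes. Hmmr led, at 3.62-fold higher (log2 1.86, SE 0.17, edgeR adjusted p = 6.68e-05). Its call held in each of the 12 fits that left out 1 library (log2 1.77 to 1.99), and ID8-FSHR replicate 2, low in most members, was as high as replicate 1. The 8 proliferation markers were all higher in ID8-FSHR too, with a median log2 fold change of 1.87.

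Hpse was the other member higher in ID8-FSHR, at 1.49-fold (log2 0.57, SE 0.13, edgeR adjusted p = 0.0141), although ID8-FSHR replicate 1 fell inside the ID8 range. The call was lost without ID8 replicate 3 (edgeR adjusted p = 0.0506). Hs3st1 was 1.71-fold lower in ID8-FSHR (log2 -0.78, SE 0.17, edgeR adjusted p = 0.0141), with no overlap, and its call was lost without ID8 replicate 4 (edgeR adjusted p = 0.0508).

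The other 6 members lower in ID8-FSHR were Sdc4 (log2 -0.76, SE 0.21, edgeR adjusted p = 0.0376), Gpc1 (-0.88, SE 0.24, 0.0314), Ext1 (-0.47, SE 0.14, 0.0414), Agrn (-0.48, SE 0.14, 0.0471), Hyal1 (-0.82, SE 0.22, 0.0343) and Bgn (-1.15, SE 0.34, 0.0471). All 4 ID8-FSHR libraries lay below all 4 ID8 libraries for each of them. The calls stood close to the threshold and many single libraries decided them. Of the 12 fits that left out 1 library, the call was lost in 4 for Hyal1 (without ID8-FSHR 2 or 4 or ID8 3 or 4) and in 5 for Gpc1 (without ID8-FSHR 2 or 3 or ID8 1, 3 or 4). It was lost in 8 for Ext1, all but those without ID8-FSHR 1 or 4, ID8 2 or uninjected 2, and in 9 for Bgn, all but those without ID8-FSHR 1 or 4 or uninjected 4. For Sdc4 it held only without ID8-FSHR 1 or 2, and for Agrn only without ID8-FSHR 3. The direction stayed the same in each fit, and the highest edgeR adjusted p was 0.129.

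Without ID8-FSHR replicate 2 the members called in this comparison were Hmmr and Hpse, higher, and Hs3st1 and Sdc4, lower. Of the 10 mesothelial and ovarian surface markers 5 were lower in ID8-FSHR than in ID8, with a median log2 fold change of -0.85, and again 5 without replicate 2, with a median of -0.60. Their part in the members' lower levels was not tested. Sulf1, Sulf2, Gpc4 and Hspg2, all far higher in both tumour groups than in uninjected lavages, were not called between the tumours. Sulf1 was at log2 -0.39 (SE 0.24, edgeR adjusted p = 0.303), Sulf2 -0.28 (SE 0.16, edgeR adjusted p = 0.291), Gpc4 -0.12 (SE 0.46, edgeR adjusted p = 0.896) and Hspg2 -0.59 (SE 0.23, edgeR adjusted p = 0.114). All 4 ID8-FSHR libraries were nonetheless below all 4 ID8 libraries for Hspg2. Srgn, at log2 0.79 (edgeR adjusted p = 0.0754), was called higher in ID8-FSHR without its replicate 1 (edgeR adjusted p = 0.0339) or 3 (edgeR adjusted p = 0.0487). Has3, at log2 -1.13 (edgeR adjusted p = 0.150), was called lower without ID8-FSHR replicate 1 (log2 -1.54, edgeR adjusted p = 0.0498).

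**Figure D4:**
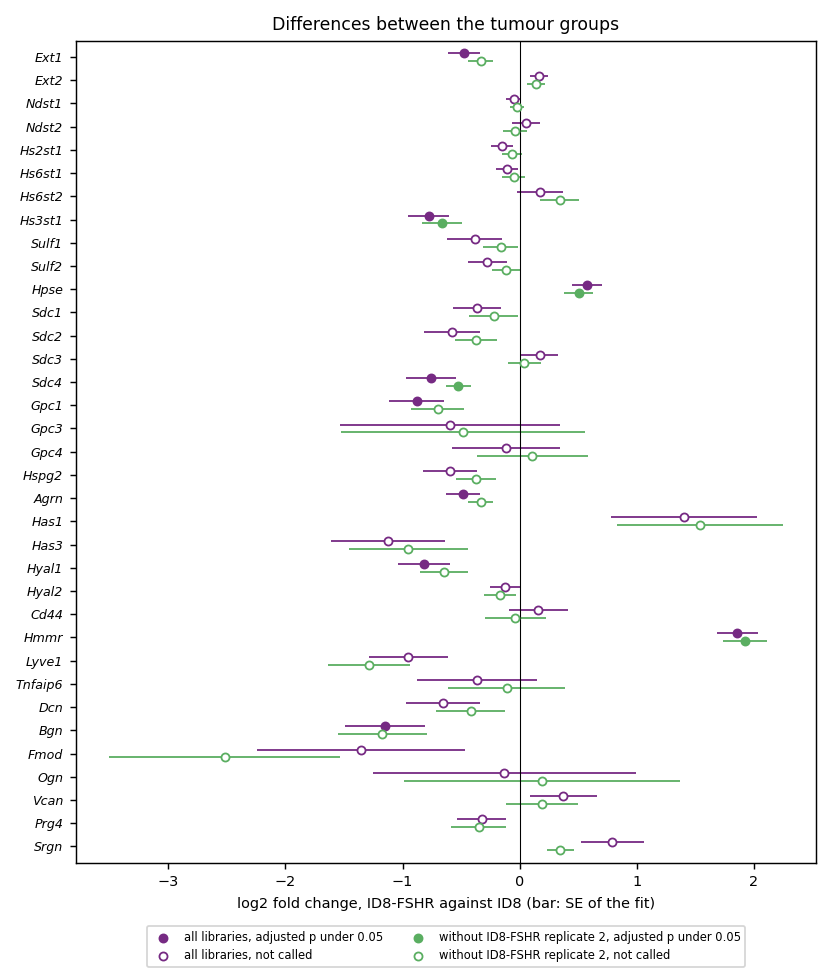
Log2 fold change of each tested member in ID8-FSHR against ID8 lavages (x axis), with standard errors of the edgeR fit as bars, for all 12 libraries and without ID8-FSHR replicate 2; filled symbols passed an adjusted p of 0.05. Hmmr lies at 1.86 and apart from the rest, and most other members lie below 0.

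A wider list held 97 further genes of glycosaminoglycan metabolism, of which 64 passed the filter. Of the 64, 15 were higher and 23 lower in ID8-FSHR and 14 were higher and 27 lower in ID8 than in uninjected lavages, with median log2 fold changes of -0.10 for ID8-FSHR and -0.24 for ID8. Over all tested genes 33.9% were higher and 30.6% lower in ID8-FSHR, and 32.7% higher and 31.4% lower in ID8, so the shares of the list that were lower lie near or somewhat above those of all genes. Lysosomal enzymes that break the chains down were lower in 8 of 12 cases in ID8-FSHR and 9 in ID8, and enzymes of chondroitin and dermatan sulfate synthesis in 7 of 15 in ID8-FSHR and 9 in ID8, to be read against the same 30.6% and 31.4% of all genes. Of the same enzymes 1 of the 12 was higher in each tumour group (Arsb in ID8-FSHR and Sgsh in ID8), as were 3 of the 15 in ID8-FSHR and 2 in ID8. Chst3, a chondroitin sulfotransferase, averaged 10.5 ± 2.73 CPM in ID8-FSHR, 13.6 ± 3.53 CPM in ID8 and 88.3 ± 17.5 CPM in uninjected lavages (SD, n = 4 each), 8.43-fold lower in ID8-FSHR (edgeR adjusted p = 1.54e-07) and 6.48-fold lower in ID8 (edgeR adjusted p = 4.12e-07). Its relative Chst7 fell 8.96-fold in ID8-FSHR and 7.05-fold in ID8. Stab1, the scavenger receptor stabilin-1 of macrophages and sinusoidal endothelium, averaged 22.9 ± 7.49 CPM in ID8-FSHR, 44.0 ± 15.9 CPM in ID8 and 240.0 ± 43.0 CPM in uninjected lavages, and fell 10.5-fold in ID8-FSHR and 5.46-fold in ID8.

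Genes of that list that rose included Prelp, a small leucine-rich protein of connective tissue, at 3.06 ± 1.79 CPM in ID8-FSHR, 15.1 ± 3.49 CPM in ID8 and 0.161 ± 0.102 CPM in uninjected lavages. Cemip2, a cell-surface protein of hyaluronan turnover, was 2.39-fold higher in ID8-FSHR and 2.62-fold higher in ID8. Chst11, which sulfates chondroitin, rose 2.69-fold in ID8-FSHR. Ugp2, which makes the UDP-glucose from which hyaluronan precursors are drawn, rose 2.11-fold in ID8-FSHR and 1.99-fold in ID8. Between the tumours 5 of the 64 were higher in ID8-FSHR (Ugdh, Glce, Chst11, Arsb and Galns) and 3 lower (Prelp, Podn and Stab1), close to the 6.04% and 5.56% of all tested genes. Prelp was 4.91-fold lower (edgeR adjusted p = 0.00383) and Stab1 1.92-fold lower (edgeR adjusted p = 0.0315) in ID8-FSHR, while Chst11 was 1.73-fold higher (edgeR adjusted p = 0.0280) and Ugdh, which oxidises UDP-glucose to the glucuronate donor, 1.35-fold higher (edgeR adjusted p = 0.00505).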

How the data were processed

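Whole-number read counts per gene were deposited by the authors for the 12 libraries; the values show no normalization. Tools and build, per the submitters' processing notes, include bcl2fastq 2.20, STAR 2.7.9a, Subread 1.6.4 with featureCounts, and GRCm38.p6; per the labels' protocols the RNA was depleted of ribosomal RNA (100 ng input). The sources used here do not give strand, multimapping or annotation settings, so genes that overlap are uncertain. In each library 73.4 to 76.2% of counts from 1 to 20 were even, where independent reads would give about 50%. Single reads are therefore not independent, and the intervals, which treat them as independent, are too narrow even for counting error. The series text calls the samples biological replicates. No pair of a group agreed within sampling noise, but at this depth that check cannot tell biological from technical repeats, so it does not test the label. The labels do not say that replicate numbers pair the samples, and correlations between libraries did not settle it.

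The members, gene lists and markers were chosen with earlier results of these data known. Counts were tested in R 4.3.3 with edgeR 4.0.16 (quasi-likelihood F test, robust, TMM scaling, default filter, group as the only term, all 12 libraries), with Benjamini-Hochberg adjustment over 16915 genes and a threshold of 0.05; higher, lower, rose and fell mean past it. The test was checked on simulated counts with known changes in a small part of the genes, about as many up as down. Far more genes were called against uninjected lavages, so the check does not cover scaling in those comparisons. Levels per length used merged exons of GENCODE M21. Values in every library are given for up to 3 members per role, those with the smallest adjusted p in any comparison, and for members called between the tumour groups. Of the 97 other pathway genes, up to 3 per comparison and direction are named, those with the largest change past the threshold and a mean of at least 5 CPM in a group, and counts of 5 or fewer in full. Alternatives were median-of-ratios scaling, DESeq2 1.42.0, limma-voom (limma 3.58.1), other filters, a fit of 2 groups, leaving out the 10 most abundant genes, a threshold of 0.01, a replicate block and leaving out each library.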

Additional observations from a re-analysis of the deposited data

Results flagged for a closer look

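In 10 of 105 sets of 4 libraries (35 members in 3 groups) 1 library lay far from the other 3. For independent sets chance would give about 1 in 20. These sets share the same 12 libraries and are not independent, so that rate cannot say whether 10 is more than chance. ID8-FSHR replicate 2 accounted for 4 of the 10, with 81.3 CPM of Ndst2, 107 CPM of Sulf2, 325 CPM of Hspg2 and 1005 CPM of Srgn. The ID8 libraries had 1 such value, 776 CPM of Hspg2 in replicate 2. The uninjected libraries had 5: 36.2 CPM of Ext1 and 587 CPM of Cd44 in replicate 2, 22.7 CPM of Sdc4 in replicate 1, and 1.57 CPM of Gpc4 and 0.0436 CPM of Has1 in replicate 4. That Has1 value is 2 counts beside 3 libraries at 0, below the limit of 0.0444 to 0.0653 CPM for a count of 0. It cannot be told apart from those libraries.

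For 9 of the 35 tested members a difference between the 2 tumour groups was called by the edgeR test of ID8-FSHR against ID8. Of all tested genes 11.6% were called. Only the Hmmr call held in every fit that left out 1 library, and 0 of the 7 lower members were called at the threshold of 0.01. The log2 fold changes were 1.86 for Hmmr and 0.57 for Hpse, and -0.47 for Ext1, -0.78 for Hs3st1, -0.76 for Sdc4, -0.88 for Gpc1, -0.48 for Agrn, -0.82 for Hyal1 and -1.15 for Bgn.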

How the results depend on the processing

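Of the 35 tested members, 28 kept their direction and side of the threshold under every alternative in ID8-FSHR against uninjected lavages, 25 in ID8 against uninjected lavages and 18 in ID8-FSHR against ID8. The 5 members lower in ID8-FSHR against uninjected lavages became 3 with median-of-ratios scaling, DESeq2, no filter, without the 10 most abundant genes and at the threshold of 0.01. At 0.01 the 6 lower in ID8 became 3, and the 23 other pathway genes lower in ID8-FSHR became 14. Of the 7 members lower in ID8-FSHR than in ID8, 2 were called with no filter or in a fit of only those groups and 0 at 0.01 (edgeR), against 9 at most in any setting, and of the 2 higher 1 was called at 0.01. Genes called in that comparison, 1962 in all, became 3116 with DESeq2 and 707 at 0.01. Of the other pathway genes the 5 higher became 2 in the fit of both tumour groups alone and 1 at 0.01, and the 3 lower became 5 with DESeq2 and 1 with no filter or at 0.01.

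Leaving out 1 library at a time gave 3 to 5 members lower in ID8-FSHR and 4 to 7 in ID8 against uninjected lavages, and 19 to 20 higher in both. Other pathway genes ran from 14 to 16 higher and 17 to 22 lower in ID8-FSHR, and 11 to 15 higher and 24 to 28 lower in ID8. Between the tumour groups it gave 961 to 3136 genes, 1 to 3 members higher and 0 to 7 lower, and 1 to 11 other pathway genes higher and 1 to 5 lower. Genes called against uninjected lavages ran from 10188 to 11166 for ID8-FSHR and 10160 to 11063 for ID8.

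The sign turned only for values that were not called. Hyal1 in ID8-FSHR against uninjected lavages (-0.01) became 0.0453 with median-of-ratios scaling, 0.0456 with DESeq2, 0.01 with no filter and 0.0008 in the fit of those groups, and Hyal2 became -0.0016 with the filter of 1 CPM. Gpc3 in ID8 became 0.255 with limma-voom and Fmod -0.0118 with the replicate block. Leaving out 1 library, values ran from -0.1232 to 0.2552 for Hyal1, -0.4087 to 0.1045 for Srgn and -0.0655 to 0.084 for Hyal2 in ID8-FSHR against uninjected lavages. In ID8 they ran from -0.9878 to 0.0783 for Gpc3, -0.009 to 0.3309 for Cd44 and -0.332 to 0.7162 for Fmod, and between the tumour groups from -0.0423 to 0.1595 for Ndst2, -0.2728 to 0.1064 for Gpc4, -0.0367 to 0.3373 for Cd44 and -1.119 to 0.6756 for Ogn. The causes were not tested.

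Deviations of same-numbered libraries correlated at -0.11 to 0.19 over 12 pairs and those of different numbers at -0.18 to 0.21. These ranges overlap, so they do not show pairing by replicate number and cannot exclude it. With the replicate block 10666, 10581 and 1776 genes were called in ID8-FSHR against uninjected, ID8 against uninjected and ID8-FSHR against ID8, with 19 members higher and 5 lower, 19 and 7, and 2 and 7. The block lost the calls of Vcan in ID8-FSHR (adjusted p = 0.0610) and Hs6st2 in ID8 (0.0544) against uninjected lavages and of Bgn between the tumour groups (0.0557), and added Sdc3, lower in ID8 than in uninjected lavages (0.0315), and Hspg2, lower in ID8-FSHR than in ID8 (log2 -0.65, 0.0175). Members of low counts, at most 44 in any library (Gpc2, Gpc3, Gpc6, Has1, Has2, Lum, Fmod and Ogn), are limited by depth. Some also varied widely within a group. Uninjected libraries ran from 0 to 0.493 CPM for Gpc3, 0 to 0.485 CPM for Gpc6 and 0 to 0.868 CPM for Ogn.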
